A study of Mus musculus with 18 samples.

Results

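The 10 genes described here encode subunits of the NMDA receptor and the isoforms of Ca2+/calmodulin-dependent protein kinase II (CaMKII). The members are *Grin1*, *Grin2a*, *Grin2b*, *Grin2c*, *Grin2d*, *Grin3a*, *Camk2a*, *Camk2b*, *Camk2d* and *Camk2g*. They were chosen by name, and all 10 are among the 15329 genes of the deposited table. Their levels come from 18 libraries of hippocampal RNA from C57BL/6J mice of 8 to 10 weeks, in 6 groups of 3. The numbered libraries of a group are taken as separate mice, which the labels do not state outright, so p-values measure the spread between libraries, which may be partly technical. Wild-type (WT) mice and *Ccny* knockout (KO) mice, which lack cyclin Y, were left untrained in WT_Basal and KO_Basal. WT_OL and KO_OL mice had completed the original task of the Morris water maze, a search for a hidden platform trained 4 times a day for 5 days, and WT_RL and KO_RL mice had also been retrained for 3 days with the platform moved. The comparisons ask how the transcripts of the receptor and its main kinase stood after each phase of learning, and whether loss of *Ccny* altered them. The labels give whole hippocampal tissue, so fewer cells of a type and less RNA per cell cannot be told apart. How the *Ccny* allele was made is not given in the sources used here.

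NMDA receptors are glutamate-gated cation channels that open only when glutamate, a co-agonist such as glycine or D-serine and depolarization of the membrane coincide. An obligatory GluN1 subunit (*Grin1*) joins GluN2 subunits, which bind glutamate and set channel kinetics, or GluN3 subunits, which lower Ca2+ entry. In the adult forebrain GluN2A (*Grin2a*) and GluN2B (*Grin2b*) predominate, and the balance shifts from GluN2B toward GluN2A as circuits mature. Ca2+ passing the receptor binds calmodulin and activates CaMKII, a holoenzyme made in excitatory neurons mostly of alpha (*Camk2a*) and beta (*Camk2b*) subunits, which docks on GluN2B and is required for long-term potentiation. The delta and gamma isoforms (*Camk2d*, *Camk2g*) are also made outside neurons.

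Between 29248557 and 37915576 reads per library fell on listed genes, and 1 read corresponded to 0.0274 to 0.0333 CPM, the read count scaled to the library total. The member with the fewest reads, *Grin2d*, had 209 to 443 reads per library, so for this gene counting error is part of the spread between mice. The values are log2(CPM + 1), and a difference is always between group means on this log2 scale. Differences were tested with limma on all 18 libraries, and a gene is called where p, adjusted over all 15329 genes by the Benjamini-Hochberg method, is under 0.05. The targeted gene *Ccny* (chromosome 18, 9312304 to 9450154, minus strand) lay at 106.6 to 158.5 CPM in the 9 WT mice and at 74.0 to 95.8 CPM in the 9 *Ccny* KO mice, without overlap. The defining markers of excitatory neurons were present in every library: *Slc17a7*, the vesicular glutamate transporter of cortex and hippocampus, stood at 1022 to 1684 CPM.

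Features of the libraries bear on the members. WT_OL replicate 2 stood apart. It had the lowest level of *Grin2a*, *Grin2b*, *Grin2d*, *Grin3a* and *Camk2b* of all 18 libraries and the highest of *Grin2c* and *Camk2a*. Its summed markers of astrocytes, oligodendrocytes, microglia and endothelial cells were the highest of the 18 libraries, and those of GABAergic interneurons and dentate granule neurons the lowest. In addition, the trend of expression with the GC content of transcripts differed between untrained and trained mice. The slope lay between -0.168 and -0.107 log2 units per 10 points of GC in the 6 Basal libraries and between -0.00994 and 0.194 in the 12 trained ones, so it cannot be told apart from training. Slopes with transcript length were -0.112 to -0.0227 log2 units per doubling in Basal libraries and -0.171 to 0.132 in trained ones. Calls between trained and untrained mice were therefore also tested after correction of every library for GC content, alone or with length.

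Levels of different genes can be compared only per length. Per kilobase of merged exons, the median over the 18 libraries was 569 CPM for *Camk2a*, 140 for *Camk2b* and 50.0 for *Grin1*, followed by *Camk2g* (31.6) and *Grin2c* (9.58). Each of these 5 genes was above the next in order in 18 of 18 libraries. *Grin3a* (4.22 CPM per kilobase) and *Grin2b* (4.20) were not separated, with *Grin3a* above in 11 of 18 libraries, and neither were *Grin2a* (2.66) and *Camk2d* (2.42), with *Grin2a* above in 10. *Grin2d* was lowest at 1.34 CPM per kilobase. With the length of the longest transcript the first 5 places were the same, but *Camk2d* stood at 9.85 CPM per kilobase beside *Grin2c* at the same 9.85, because its merged exons span 22493 bases and its longest transcript 5524. The order of the GluN2 genes depends on how many bases of each long transcript were covered by reads, which the table does not show.

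**Figure D1:**
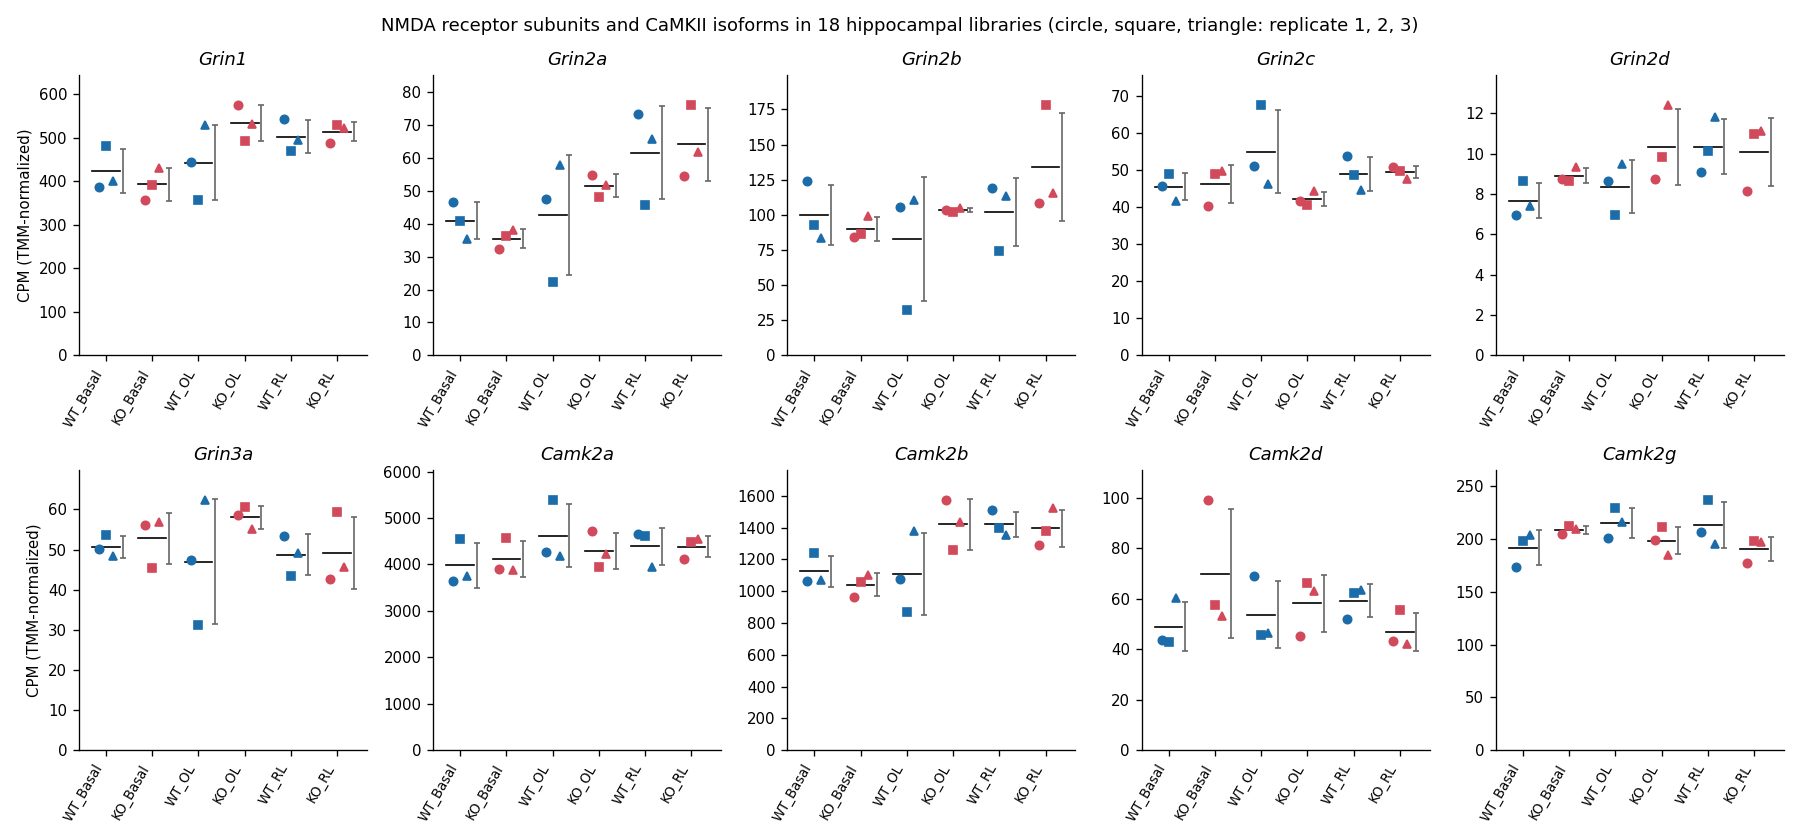
CPM of each member in every library (y axis, from 0), by group (x axis), with WT in blue and *Ccny* KO in red, a line for the group mean and a grey bar for 1 SD over 3 mice. *Grin2a* and *Camk2b* stand higher in both RL groups than in both Basal groups, and WT_OL replicate 2 (blue square) is the lowest library for 5 of the 10 genes.

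*Grin2a* (GluN2A, chromosome 16, 9567898 to 9995560, minus strand) showed the largest training difference among the members. Its level was 46.5, 40.8 and 35.2 CPM in the WT_Basal mice and 32.2, 36.1 and 38.0 CPM in the KO_Basal mice. After reversal learning it was 73.3, 45.8 and 65.5 CPM in WT_RL and 54.4, 76.0 and 61.6 CPM in KO_RL. Of the 6 RL mice, 5 lay above all 6 Basal mice, and the exception, WT_RL replicate 2, lay just under the highest WT_Basal mouse. In *Ccny* KO mice the rise from KO_Basal to KO_RL was 0.83 on the log2 scale (SE 0.249, adjusted p = 0.0253 from limma), a 1.77-fold difference. In WT mice the difference was 0.56 (SE 0.249, adjusted p = 0.139 from limma), short of the threshold, and the genotypes differed in it by 0.26 (adjusted p = 0.920 from limma). With both genotypes combined, a comparison added after the data were seen, *Grin2a* rose by 0.69 (SE 0.176, adjusted p = 0.00608 from limma) from Basal to RL. The KO_RL call alone was lost, at 0.70 to 0.85, without KO_Basal replicate 1 or 2 or KO_RL replicate 2 or 3. The WT_RL difference was a call without WT_OL replicate 2 and after correction for GC and length. WT_OL replicate 2 is in neither compared group, so leaving it out changes only the shared variance estimate, not the difference. The call over both genotypes held in 29 of 29 alternative settings, with values of 0.58 to 0.79, and the difference was 0.76 after GC correction and 0.58 after correction for GC and length.

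After original learning *Grin2a* stood at 54.8, 48.0 and 51.9 CPM in KO_OL, above every KO_Basal mouse. The difference was 0.53 (SE 0.249, adjusted p = 0.136 from limma). It was a call without WT_OL replicate 2, which again enters only the shared variance estimate. WT_OL mice had 47.5, 22.3 and 57.7 CPM, and their difference of -0.04 from WT_Basal averages a pair of mice above all WT_Basal mice and WT_OL replicate 2 far below them. From original to reversal learning the difference was 0.60 in WT mice (adjusted p = 0.262 from limma) and 0.20 without WT_OL replicate 2. All 6 markers of dentate granule neurons were listed, and none stood at 0 in any group. Their summed level was 249 to 351 CPM in Basal libraries and, with overlap, 326 to 493 in RL libraries. It was 201 to 449 CPM in WT_OL, against 287 to 314 in WT_Basal, and 306 to 413 in KO_OL. WT_OL replicate 1 had 242 CPM, below all WT_Basal mice, while its *Grin2a* lay above them. KO_RL replicate 2, the highest library in *Grin2a*, had the lowest sum of the RL libraries, 326 CPM. The part of these markers in the *Grin2a* result was not tested.

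*Grin1* (GluN1, chromosome 2, 25291181 to 25319187, minus strand) and *Camk2b* (chromosome 11, 5969644 to 6066362, minus strand) followed each other across libraries, with a Pearson correlation of 0.95 over the 18 libraries and 0.93 after removal of group means. These correlations describe libraries that share depth, base composition and tissue makeup. Both genes are of interest as the pair that was called after original learning, so the 250 bases before their RefSeq start sites (GRCm38.p6) are shown here, 5′ to 3′ on the strand of the gene, at chr2:25319188-25319437 for *Grin1* and chr11:6065749-6065998 for *Camk2b*. The gene positions given above are those of GENCODE. By these the *Grin1* window lies just before the gene, while the *Camk2b* window lies inside it, downstream of the GENCODE start. Capitals mark GGGCGG, a GC box bound by Sp1-type factors, and TGACG, the core of the cAMP response element, or the complement of either.
Grin1: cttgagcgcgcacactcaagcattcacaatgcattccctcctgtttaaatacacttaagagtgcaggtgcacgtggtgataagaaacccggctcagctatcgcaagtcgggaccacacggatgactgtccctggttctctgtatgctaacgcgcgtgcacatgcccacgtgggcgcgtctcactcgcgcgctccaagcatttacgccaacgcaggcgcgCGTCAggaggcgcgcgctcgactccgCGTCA
Camk2b: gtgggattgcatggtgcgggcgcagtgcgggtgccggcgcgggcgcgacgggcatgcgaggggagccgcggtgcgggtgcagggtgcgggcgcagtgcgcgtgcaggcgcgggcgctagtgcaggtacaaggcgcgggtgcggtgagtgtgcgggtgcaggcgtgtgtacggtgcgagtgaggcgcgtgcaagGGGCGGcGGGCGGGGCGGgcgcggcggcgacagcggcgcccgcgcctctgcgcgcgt
The *Grin1* window held the TGACG core as its complement CGTCA in 2 places and no GC box, and the *Camk2b* window held 3 GC boxes on the strand of the gene, the last pair sharing a base, and no TGACG. Of 32851 windows of the same length, 32.7% held a GC box and 17.8% the TGACG core on either strand. GCGGGGGCG, the motif of Egr factors, stood in neither window and in 2.57% of all windows. GC content was 58.8% in the *Grin1* window and 78.4% in the *Camk2b* window. Of the other members, *Grin2c*, *Grin2d* and *Camk2d* were matched in the RefSeq promoter table.

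*Camk2b* lay at 1067, 1238 and 1073 CPM in WT_Basal and at 964, 1058 and 1102 CPM in KO_Basal. It lay at 1576, 1256 and 1435 CPM in KO_OL, at 1292, 1376 and 1522 CPM in KO_RL and at 1510, 1396 and 1356 CPM in WT_RL, so that all 6 RL mice were above all 6 Basal mice. In *Ccny* KO mice it rose by 0.45 after original learning (SE 0.138, adjusted p = 0.0284 from limma) and by 0.42 after reversal learning (SE 0.138, adjusted p = 0.0367 from limma). WT_OL mice, at 1075, 871 and 1379 CPM, spread from below every Basal mouse to above every Basal mouse, and their difference from WT_Basal was -0.04. The WT_RL difference was 0.34 (SE 0.138, adjusted p = 0.109 from limma). With both genotypes together the rise from Basal to RL was 0.38 (SE 0.0977, adjusted p = 0.00652 from limma), called in 28 of 29 alternatives. The exception was the correction for GC and length, with 0.23 (adjusted p = 0.0842 from limma). The KO calls did not hold after GC correction alone, with 0.35 in KO_OL (adjusted p = 0.119 from limma) and 0.33 in KO_RL (adjusted p = 0.132 from limma). Quantile normalization gave 0.26 in KO_OL (adjusted p = 0.0675 from limma), 0.24 in KO_RL (adjusted p = 0.0836 from limma) and 0.19, still a call, for RL over both genotypes. The KO_OL call was also lost without KO_Basal replicate 1 or 2 or KO_OL replicate 1 or 3, and the KO_RL call without KO_Basal replicate 1 or 2 or KO_RL replicate 2 or 3, with differences of 0.36 to 0.46. The WT_RL difference was a call without WT_OL replicate 2 or 3, mice that enter only the shared variance estimate of this comparison.

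*Grin1* lay at 387, 481 and 401 CPM in WT_Basal, at 356, 392 and 430 CPM in KO_Basal, at 443, 357 and 529 CPM in WT_OL and at 576, 492 and 532 CPM in KO_OL. After reversal learning it lay at 544, 469 and 496 CPM in WT_RL and at 489, 530 and 522 CPM in KO_RL. All KO_OL and all KO_RL mice were above all KO_Basal mice, with rises of 0.44 (SE 0.124, adjusted p = 0.0174 from limma) and 0.39 (SE 0.124, adjusted p = 0.0328 from limma). With both genotypes together the differences were 0.25 after original (adjusted p = 0.0435 from limma) and 0.32 after reversal learning (adjusted p = 0.00941 from limma). *Grin1* transcripts are GC-rich, at 59.4% against a median of 49.8% over listed genes, and its training calls ended with the correction for GC content: 0.30 in KO_OL (adjusted p = 0.156 from limma) and 0.25 in KO_RL (adjusted p = 0.220 from limma). The differences over both genotypes were then 0.09 for OL and 0.19 for RL, neither called, and those of WT mice were -0.12 in WT_OL and 0.13 in WT_RL. As deposited, the KO_OL call was lost without KO_Basal replicate 1 or KO_OL replicate 1 or 3, and the KO_RL call without KO_Basal replicate 1 or 2 or any KO_RL mouse. The call for OL over both genotypes held in 13 of 29 alternatives and that for RL in 27. Exons of *Grin1* overlap those of the antisense gene *Grin1os*, and the strand setting of the counting is not stated, so reads of the pair may not have been told apart.

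In the KO comparisons where *Grin1* and *Camk2b* were called, markers of cell types moved as well. *Slc17a7* lay at 1047 to 1222 CPM in KO_Basal, 1366 to 1684 in KO_OL and 1334 to 1537 in KO_RL. *Neurod6*, another glutamatergic marker, showed no such rise, with 182 to 272 CPM in KO_Basal, 167 to 239 in KO_OL and 170 to 210 in KO_RL. The 6 glutamatergic markers, all listed and none at 0, summed to 2299 to 2786 CPM, 2767 to 3411 and 2760 to 3072 in the same order. The 5 endothelial markers, all listed and none at 0, summed to 194 to 212 CPM in KO_Basal, 154 to 178 in KO_OL and 172 to 188 in KO_RL, without overlap between Basal and trained mice. The 7 astrocyte markers, all listed and none at 0, summed to 2945 to 3102 CPM in KO_Basal, 2723 to 2809 in KO_OL and 2605 to 2963 in KO_RL. The 7 choroid plexus markers, all listed and none at 0, summed to 44.8 to 662 CPM in KO_Basal. They reached 2390 to 4617 CPM in KO_OL and 1320 to 4988 in KO_RL, without overlap with KO_Basal. The 6 microglia markers, all listed and none at 0, summed to 300 to 322 CPM in KO_Basal, 271 to 284 in KO_OL and 253 to 310 in KO_RL. The 7 GABAergic markers, all listed and none at 0, summed to 931 to 948 CPM, 949 to 1053 and 938 to 969 in the same order. The part of all these markers in the *Grin1* and *Camk2b* results was not tested.

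**Figure D2:**
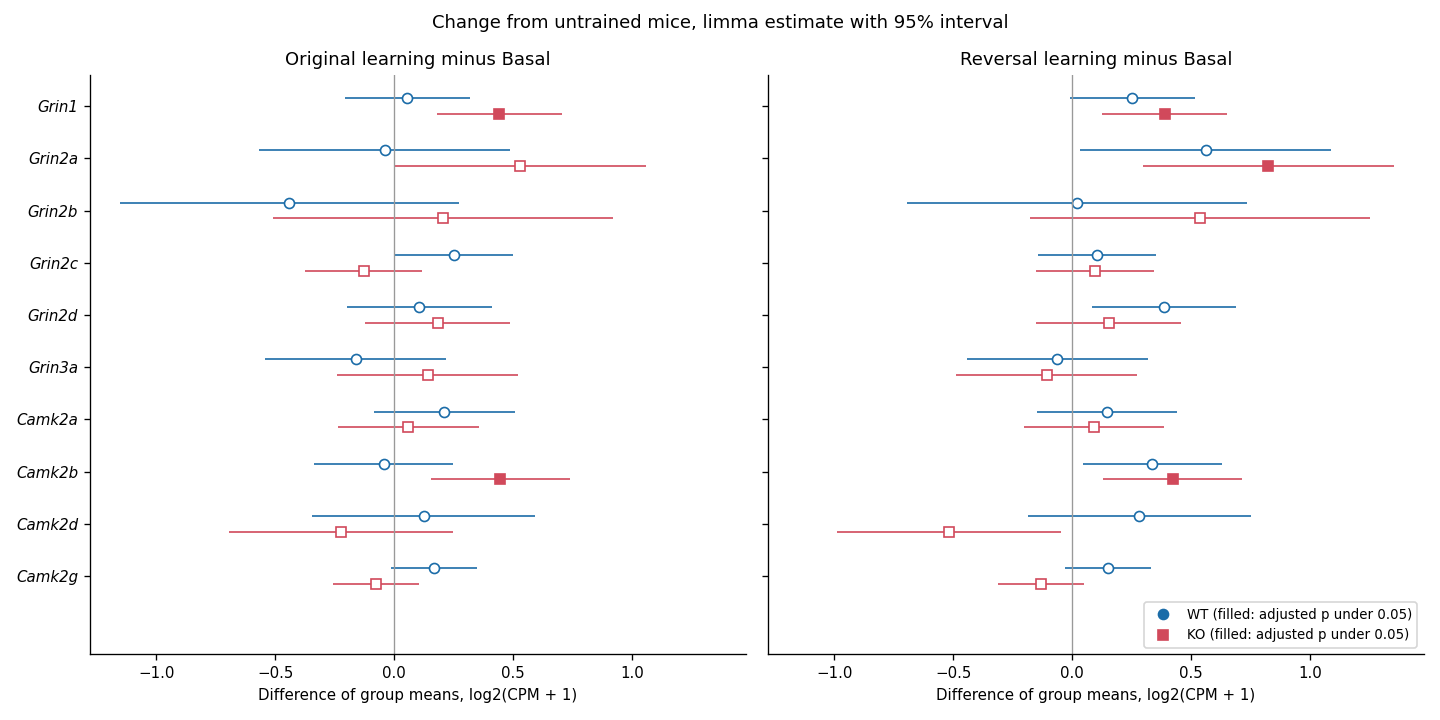
Difference from the untrained mice of the same genotype on the log2(CPM + 1) scale (x axis) for each member (y axis), after original learning (left) and reversal learning (right), with 95% intervals from limma. Filled symbols mark calls: *Grin1* and *Camk2b* in KO_OL, and these with *Grin2a* in KO_RL.

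Counted over the members, 2 of 10 were called in KO_OL against KO_Basal and 3 of 10 in KO_RL against KO_Basal, all higher. Over all genes 23.5% and 23.6% were called in these comparisons, 11.2% and 11.6% as higher, so the members' shares lie near the background and are not a result about the group. In WT mice 0 of 10 were called after original learning, where 1 had an unadjusted p under 0.05 (*Grin2c*) and 9.50% of all genes were called, and 0 of 10 after reversal learning, where 3 had an unadjusted p under 0.05 and 15.7% of all genes were called. voom on the recovered reads also called 0 members in both WT comparisons. With the genotypes together, 1 of 10 was called for OL against Basal (28.6% of all genes, 13.4% as higher) and 4 of 10 for RL against Basal (35.4%, 18% as higher), the fourth being *Grin2d*. The median difference of the members was 0.08 and 0.16 in WT_OL and KO_OL and 0.20 and 0.12 in WT_RL and KO_RL, beside medians of all genes between -0.01 and 0.00. The 3 mice of a trained group lay wholly beyond the 3 Basal mice of their genotype for 0 of 10 members in WT_OL and 2 in WT_RL, where 28.3% and 34.3% of all genes did so. In KO_OL and KO_RL it was 4 and 5 members, beside 48.8% and 45.3% of all genes. WT and KO comparisons do not share mice, but OL and RL are compared with the same Basal mice.

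Between original and reversal learning 0 members were called in either genotype. In WT mice *Camk2b* and *Grin2a* had an unadjusted p under 0.05, and 0.261% of all genes were called. In *Ccny* KO mice no member had an unadjusted p under 0.05, the differences ran from -0.29 (*Camk2d*) to 0.33 (*Grin2b*), and 0.0196% of all genes were called.

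**Figure D3:**
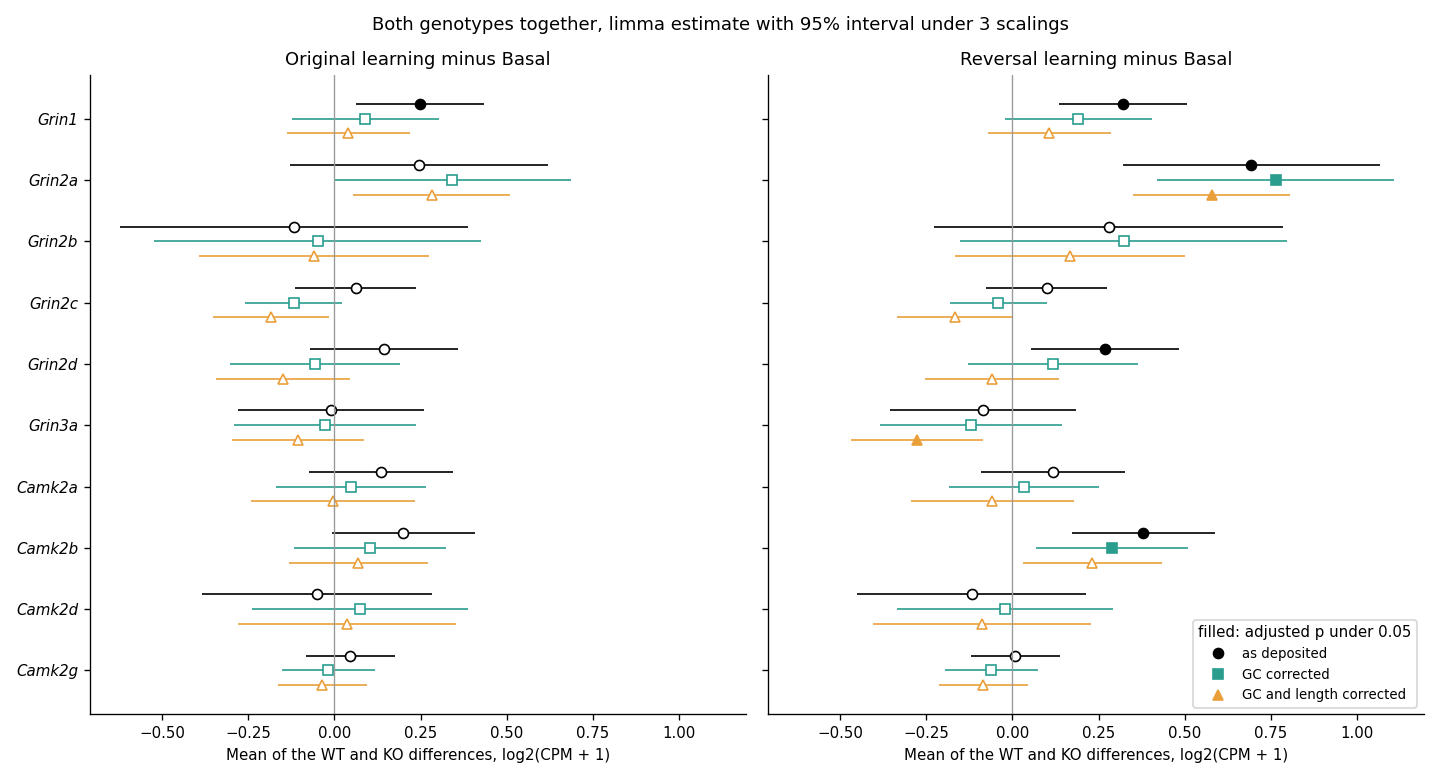
Mean of the WT and KO differences from Basal on the log2(CPM + 1) scale (x axis) for each member (y axis), with 95% intervals from limma, as deposited (black), after GC correction (green) and after correction for GC and length (orange). *Grin2a* after reversal learning is filled, that is called, under all 3 scalings, at 0.69, 0.76 and 0.58, while *Grin1* is called only as deposited and *Grin3a* is called lower only after correction for GC and length.

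*Grin2b* (GluN2B, chromosome 6, 135713233 to 136173511, minus strand), which anchors CaMKII at the synapse, was called in none of the 15 comparisons. It lay at 123.9, 92.9 and 83.3 CPM in WT_Basal and 84.0, 86.5 and 99.3 CPM in KO_Basal, against 118.9, 74.2 and 113.3 CPM in WT_RL and 108.3, 178.3 and 115.4 CPM in KO_RL. The RL difference was 0.02 in the wild type (adjusted p = 0.977 from limma) and 0.54 in the knockout (adjusted p = 0.264 from limma), neither called, although all KO_RL mice were above all KO_Basal mice. In WT_OL it lay at 105.5, 32.3 and 110.6 CPM, and the difference of -0.44 from WT_Basal became 0.13 without WT_OL replicate 2. *Grin2b* has the longest transcript of the members, at 24060 bases, and its deviation in that library from the other WT_OL mice, -1.71 on the log2 scale, was the largest of the 10, followed by *Grin2a* at -1.19 with 14634 bases and *Grin3a* at -0.78 with 7491. Exons of *Grin2b* overlap *Gm14329*, *Gm22892* and *Gm26653* on the other strand.

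The ratio of *Grin2b* to *Grin2a* within each library follows from these values and is given as a description, with no test. As log2 of the ratio of CPM it was 1.41, 1.19 and 1.24 in WT_Basal and 1.38, 1.26 and 1.39 in KO_Basal. It was 1.15, 0.53 and 0.94 in WT_OL, 0.92, 1.09 and 1.02 in KO_OL, 0.70, 0.70 and 0.79 in WT_RL, and 0.99, 1.23 and 0.91 in KO_RL. Of the 12 trained mice 11 lay below all 6 Basal mice, and KO_RL replicate 2, the exception, lay within their range. As a ratio of CPM, the group mean was 2.43 ± 0.204 (SD, n = 3) in WT_Basal, 1.86 ± 0.391 in WT_OL and 1.66 ± 0.0620 in WT_RL, and 2.54 ± 0.124, 2.02 ± 0.119 and 2.07 ± 0.246 in KO_Basal, KO_OL and KO_RL. The 3 WT_RL mice were below all KO_RL mice. The GC contents of the transcripts are close, at 45.7% for *Grin2b* and 44.8% for *Grin2a*, while their lengths differ.

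The ratio of *Camk2b* to *Camk2a*, also given with no test, was higher in most trained mice. Its log2 value was -1.88 to -1.78 in WT_Basal and -2.11 to -1.82 in KO_Basal. It was -1.65 to -1.56 in KO_OL, -1.72 to -1.54 in WT_RL and -1.70 to -1.58 in KO_RL, all above every Basal mouse. WT_OL mice had -1.99, -2.63 and -1.60, so of the 12 trained mice 10 were above the Basal range, WT_OL replicate 1 was inside it and WT_OL replicate 2 below it. *Camk2a* (chromosome 18, 60925618 to 60988152), the alpha isoform, varied little itself: it lay at 3651 to 5395 CPM, and its differences from Basal were between 0.06 in KO_OL and 0.21 in WT_OL, with no unadjusted p under 0.05. GC contents of the transcripts were 53.9% for *Camk2b* and 53.3% for *Camk2a*.

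**Figure D4:**
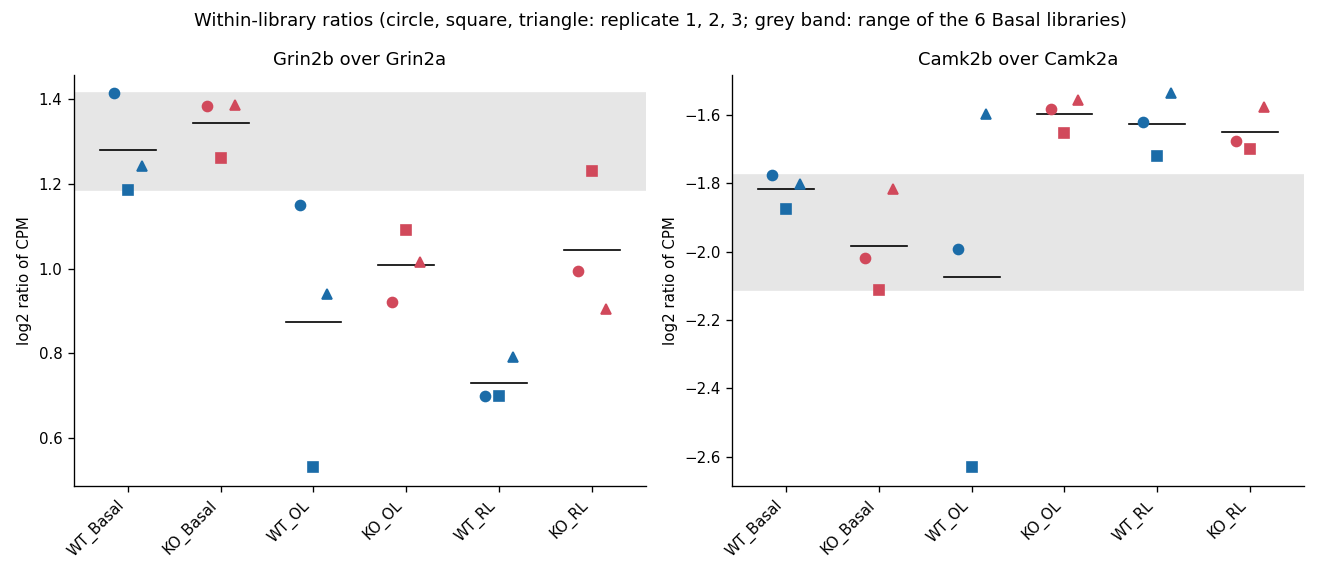
Log2 ratio of CPM (y axis) of *Grin2b* over *Grin2a* (left) and of *Camk2b* over *Camk2a* (right) in each library, by group (x axis), with a line for the group mean and a grey band for the range of the 6 Basal libraries. The left ratio lies under the band in 11 of 12 trained mice, and the right ratio lies above it in 10 of 12.

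*Grin2c* (GluN2C, chromosome 11, 115249169 to 115267243, minus strand) is a subunit known from cerebellar granule cells and from astrocytes. It lay at 45.8, 49.0 and 41.8 CPM in WT_Basal, at 51.2, 67.6 and 46.2 CPM in WT_OL and at 41.6, 40.7 and 44.3 CPM in KO_OL. The highest value is that of WT_OL replicate 2, the library with the highest summed astrocyte markers at 3895 CPM, and whether these explain it was not tested. The WT_OL difference of 0.25 from WT_Basal (adjusted p = 0.186 from limma) was 0.10 without that mouse and 0.37, a call, without WT_OL replicate 3. It was 0.046 after GC correction and 0.033 after correction for GC and length. The KO_OL difference from KO_Basal was -0.13 as deposited, -0.28 after GC correction (adjusted p = 0.0543 from limma) and, a call toward lower levels, -0.40 after correction for GC and length (adjusted p = 0.0265 from limma). All KO_OL mice lay below all WT_OL mice, with a difference of -0.36 (SE 0.117, adjusted p = 0.182 from limma). The correlation of *Grin2c* with *Grin3a* over the 18 libraries was -0.70 and with *Camk2a* 0.68. WT_OL replicate 2 was the highest library for *Grin2c* and *Camk2a* and the lowest for *Grin3a*. Both correlations may rest largely on that library, and they were not computed without it.

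*Grin2d* (GluN2D, chromosome 7, 45831883 to 45878378, minus strand), a subunit known from interneurons, was the lowest member at 6.94 to 12.4 CPM. Its WT_RL mice, at 9.11, 10.1 and 11.8 CPM, lay above the WT_Basal mice at 6.96, 8.63 and 7.42 CPM, with a difference of 0.39 (SE 0.143, adjusted p = 0.0777 from limma). With the genotypes together the RL difference was 0.27 (adjusted p = 0.0483 from limma), against -0.06 after correction for GC and length. This call held in 13 of 29 alternatives. *Grin2d* has the most GC-rich transcripts of the members, at 65.0%. *Grin3a* (GluN3A, chromosome 4, 49661611 to 49845744, minus strand) lay at 31.2 to 62.4 CPM, and as deposited none of its differences had an unadjusted p under 0.05. After correction for GC and length its RL difference over both genotypes was -0.28, a call (adjusted p = 0.0353 from limma). Exons of *Grin2c* and *Grin2d* overlap *Gm25837* and *Gm45441* on the other strand.

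*Camk2d* (chromosome 3, 126596302 to 126846326) had its widest spread in KO_Basal. KO_Basal replicate 1 had 99.2 CPM, the highest of all 18 libraries, beside 57.4 and 53.2 CPM in the other KO_Basal mice and 43.7, 43.0 and 60.1 CPM in WT_Basal. In the same library the markers of hypothalamic neurons, 6 of 7 of them listed, summed to 103 CPM, against 1.41 to 11.6 CPM elsewhere, and *Slc17a6*, the vesicular glutamate transporter of subcortical neurons, stood at 59.7 CPM, where the other Basal libraries had 14.9 to 36.3 CPM and WT_RL replicate 3 had the most, 93.9 CPM. The part of such cells in this value was not tested. The KO_RL mice, at 43.2, 55.6 and 42.1 CPM, differed from KO_Basal by -0.52 (adjusted p = 0.101 from limma), or -0.24 without that mouse. *Camk2g* (chromosome 14, 20734875 to 20794088, minus strand) was the steadiest member: its 6 group means spanned 0.17 on the log2 scale, and it lay at 173 to 238 CPM.

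Between genotypes 0 of 10 members were called in any training state by limma or by voom. Differences of KO_Basal from WT_Basal ran from -0.19 (*Grin2a*) to 0.47 (*Camk2d*), the latter 0.19 without KO_Basal replicate 1. For KO_RL against WT_RL they ran from -0.33 (*Camk2d*) to 0.38 (*Grin2b*), and no member had an unadjusted p under 0.05 in either state. KO_OL and WT_OL differed by -0.36 (*Grin2c*) to 0.51 (*Grin2b*), and *Grin2c*, *Camk2b* (0.38) and *Grin1* (0.28) had an unadjusted p under 0.05. Without WT_OL replicate 2 these were -0.20, 0.22 and 0.14, and for *Grin2b* both other WT_OL mice lay above all KO_OL mice. Over all single left-out libraries they ran from -0.47 to -0.20 (*Grin2c*), 0.22 to 0.55 (*Camk2b*) and 0.14 to 0.42 (*Grin1*). Limma with library weights called 5 members in this comparison. Pooled over training states, differences ran from -0.11 (*Grin2c*) to 0.25 (*Grin2b*), with a lowest adjusted p of 0.665 from limma. The pooled *Grin2b* difference was 0.062 without WT_OL replicate 2. Of all genes, 0.0196%, 0.0652%, 0% and 0.0326% were called in KO_Basal, KO_OL, KO_RL and pooled, and *Ccny* was among those called in each except KO_RL.

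The test of whether training differences differ between genotypes called 0 members by limma or voom and, by limma, 0% of all genes in each of its 3 forms, with 1 to 3 members at an unadjusted p under 0.05. For OL against Basal the KO difference exceeded the WT difference by 0.49 for *Camk2b* (adjusted p = 0.388 from limma) and by 0.39 for *Grin1* (adjusted p = 0.394 from limma), and for *Grin2c* this contrast was -0.38. Without WT_OL replicate 2 these were 0.33, 0.24 and -0.22. Over all single left-out libraries they ran from 0.33 to 0.66, 0.24 to 0.52 and -0.50 to -0.22. Limma with library weights called 4 members in this form of the test. For RL against Basal the lowest values were those of *Camk2d*, -0.80 (SE 0.314, adjusted p = 0.908 from limma), and *Camk2g*, -0.28, the former -0.52 without KO_Basal replicate 1. For RL against OL *Grin2c* stood at 0.37 (adjusted p = 0.607 from limma), or 0.22 without WT_OL replicate 2. The calls of *Grin1*, *Camk2b* and *Grin2a* in *Ccny* KO mice alone are thus not shown to differ from WT mice.

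Partners of the receptor were taken as a list of 20 genes, 19 of them listed. After original learning 0 of 19 were called in WT mice, and in KO mice 3 rose and 0 fell. After reversal learning 2 rose in WT mice and 4 in KO mice. Over all genes 9.50% were called in WT_OL and 15.7% in WT_RL, and 11.2% and 11.6% were called higher in KO_OL and KO_RL, so these few calls are not read as a result about the list. The median difference of the list was 0.01, 0.20, 0.09 and 0.20 in these comparisons. The 3 genes called in KO_OL were *Actn2*, alpha-actinin 2, which binds the tail of GluN1 (0.66, adjusted p = 0.0356 from limma), *Rasgrf1*, a Ca2+-dependent activator of Ras that binds GluN2B (0.46), and *Grina*, a glutamate receptor-associated membrane protein (0.38). All 3 were called in KO_RL too, against the same KO_Basal mice. *Actn2* lay at 15.8, 19.5 and 23.3 CPM in KO_OL and at 11.4, 7.06 and 14.8 CPM in WT_OL, so that all KO_OL mice were above all WT_OL mice. The genotypes differed in its OL difference by 1.04 (SE 0.303, adjusted p = 0.388 from limma). None of the 3 kept its KO_OL call after GC correction, where the adjusted p from limma was 0.0689 to 0.0963. After correction for GC and length the differences were still 0.54 (*Actn2*), 0.33 (*Rasgrf1*) and 0.33 (*Grina*), not called.

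Calmodulin, the other CaM-dependent kinases, the CaMKII inhibitors and the phosphatases that oppose CaMKII formed a list of 23 genes, all listed. After original learning it held 0 higher and 4 lower genes in WT_OL, with a median of -0.02, and 1 and 4 in KO_OL, with a median of -0.09. After reversal learning these counts were 1 and 4 in WT mice (median -0.05) and 3 and 5 in KO mice (median -0.03). In either direction 9.50% and 23.5% of all genes were called after original learning in WT and KO mice, and 15.7% and 23.6% after reversal learning, and nothing particular to the list is read from its counts. *Ppp1cb*, a catalytic subunit of protein phosphatase 1, which removes the activating phosphate of CaMKII, fell in all 4 comparisons. It lay at 439, 439 and 443 CPM in WT_Basal and 444, 454 and 441 CPM in KO_Basal, against 260 to 336 CPM in the 12 trained mice, so that no trained mouse reached a Basal one. Its differences after original learning were -0.55 (WT_OL) and -0.67 (KO_OL), those after reversal learning -0.51 and -0.55, and after correction for GC and length those of WT_OL and KO_OL were -0.33 (adjusted p = 0.00648 from limma) and -0.50 (adjusted p = 9.05e-05 from limma).

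The other genes called in WT_OL were all subunits of calcineurin, the Ca2+/calmodulin-dependent phosphatase. *Ppp3ca* fell by 0.84 (SE 0.160, adjusted p = 0.00436 from limma), *Ppp3cb* by 0.52 and *Ppp3r1* by 0.45. The 3 WT_OL mice had 1329, 928 and 1675 CPM of *Ppp3ca*, all below the WT_Basal mice at 2219, 2460 and 2193 CPM. In KO_OL the difference of *Ppp3ca* was -0.30 (adjusted p = 0.192 from limma), and the genotypes differed in it by 0.55 (adjusted p = 0.390 from limma). *Ppp3cb* lay at 336 to 374 CPM in KO_OL, below KO_Basal at 424 to 463. *Ppp3r1* lay at 1012 to 1171 CPM in KO_OL, below KO_Basal at 1255 to 1433. Over all genes 48.8% showed no overlap between these groups, in either direction. *Ppp3ca* kept its WT_OL call after GC correction (adjusted p = 0.0161 from limma), and *Ppp3cb* and *Ppp3r1* did not.

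*Camk2n1*, a small protein that inhibits CaMKII, was the most changed gene of the list in KO_OL. It lay at 1744, 1834 and 1404 CPM in KO_Basal, above all 15 other libraries, and at 924, 923 and 1109 CPM in WT_Basal. In KO_OL it lay at 879, 1215 and 875 CPM, and it fell by 0.75 from KO_Basal (SE 0.196, adjusted p = 0.0110 from limma), and in KO_RL it fell by 0.67. The WT_OL difference was -0.11, and that of KO_Basal from WT_Basal was 0.75 (SE 0.196, adjusted p = 0.994 from limma), not called although all KO_Basal mice were above all WT_Basal mice. *Calm2*, a calmodulin gene, fell by 0.35 in KO_OL, and this difference was 0.02 after correction for GC and length. Its near-identical coding copies make the counting of its reads uncertain. *Camk1g*, a CaM kinase I isoform, rose by 0.37 in KO_OL, a call lost after GC correction (adjusted p = 0.106 from limma) and after correction for GC and length, where the difference was 0.31 (adjusted p = 0.0728 from limma).

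**Figure D5:**
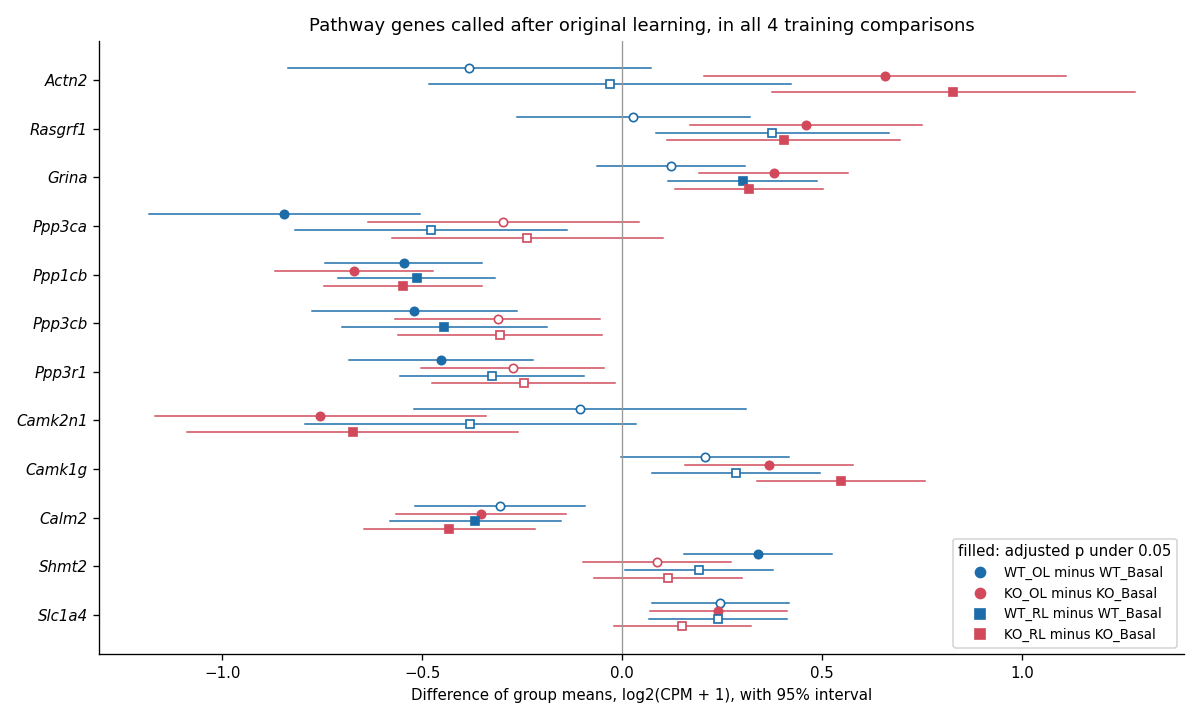
Difference from untrained mice of the same genotype on the log2(CPM + 1) scale (x axis) for the named pathway genes called after original learning in either genotype (y axis), with 95% intervals from limma, WT in blue and *Ccny* KO in red, OL as circles and RL as squares. *Ppp1cb* is filled, that is called, in all 4 comparisons, and *Actn2* lies above 0 in the KO comparisons only.

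Genes for supply and clearance of glutamate co-agonists formed a list of 12, 10 of them listed. *Shmt2*, which makes glycine from serine in mitochondria, rose by 0.34 in WT_OL (adjusted p = 0.0225 from limma), and *Slc1a4*, a serine transporter, by 0.24 in KO_OL (adjusted p = 0.0416 from limma). These were the only calls of the list in WT_OL and KO_OL, and no gene of it was called in WT_RL or KO_RL. The median difference of the list was 0.09 to 0.17 over the 4 comparisons. Neither call held after GC correction. The share of all genes called, higher or lower, was 9.50% (WT) and 23.5% (KO) for original learning. For reversal learning it was 15.7% (WT) and 23.6% (KO), so the few calls here say nothing particular about co-agonist genes.

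The 2 members with the widest spread of group means were *Grin2b*, with a span of 0.84, and *Grin2a*, with 0.83. Over the 18 libraries, among 13941 genes with a mean log2 value of at least 1, the closest to *Grin2b* were *Akap11*, *Nkain3*, *Kcnma1* and *Braf*, with Pearson correlations of 0.957 to 0.952, and 0.847 to 0.897 without WT_OL replicate 2. The closest to *Grin2a* were *Ncoa1*, *Smcr8*, *Trio* and *Sorl1*, at 0.968 to 0.964, and 0.943 to 0.954 without that library. The longest transcripts of these 8 genes have 4567 to 12094 bases, where the median listed gene has 3395. *Grin2a* and *Grin2b* themselves correlated at 0.85 over libraries and at 0.97 after removal of group means. All of these points share depth, base composition and tissue makeup, and the number of genes as close is large: 232 genes exceeded 0.9 with *Grin2a* and 125 with *Grin2b*.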

How the data were processed

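Hippocampal mRNA (poly-T selection, a stranded TruSeq kit per the labels, paired 100-bp reads) was measured in 18 libraries. Per the methods and the submitters' processing notes, the authors aligned reads to mm10 with STAR 2.5.1, counted them on genes, normalized by TMM with edgeR 3.12.1 in R 3.3.0 and deposited log2 values for 15329 genes. The methods describe CPM floored at 1, but the deposited log2 values are log2(CPM + 1): reads recovered from them were whole in 100% of cases (tolerance 0.1 read). Whether counting used strand is not stated.

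Libraries were grouped by their labels. The log2 values were fitted with limma 3.58.1 in R 4.3.3 (1 mean per group over 18 libraries, eBayes with a variance trend, 12 residual degrees of freedom), in 15 two-sided comparisons, of which the 2 that combine the genotypes were added after seeing the data. With 3 mice against 3 an exact permutation test cannot go below p = 0.1, so only overlap is given. No interval from counts is given, since those would cover counting error only.

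The members and lists were chosen with earlier results of these data known. Named genes are the members, *Ccny*, from each pathway list the up to 4 largest differences among genes called in WT_OL or KO_OL, and the 4 genes most correlated with each of the 2 most variable members. A further gene of the list of receptor partners is not reported here. Marker lists were glutamatergic, CA1 pyramidal, dentate granule, GABAergic, thalamic and habenular, hypothalamic and cerebellar granule neurons, astrocytes, oligodendrocytes, microglia, endothelium and choroid plexus. Positions, exon lengths and GC content come from GENCODE M21 on GRCm38, the build named mm10, with GC content for 99.4% of genes. Promoter sequences are RefSeq's. Alternatives, with voom on recovered reads among them, and each left-out library are in the closing section. Python 3.11.15, numpy 2.4.6 and pandas 2.3.3 were also used.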

Additional observations from a re-analysis of the deposited data

How the results depend on the processing

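GC correction and the correction for GC and length (the latter chosen after seeing the data) called 0 and 1 members (*Grin2c*, lower) in KO_OL, 1 and 1 in KO_RL (*Grin2a*), 0 and 0 for OL with both genotypes and 2 and 2 for RL with both genotypes (*Grin2a* with *Camk2b*, then with *Grin3a*, lower), and in WT_RL the second called 1 (*Grin2a*). Under the second the *Grin2d* difference for RL with both genotypes was -0.059. Library weights called 2 members in WT_OL, 2 in WT_RL, 6 in KO_RL, 1 for WT_RL against WT_OL, 5 for KO_OL against WT_OL, 4 for OL with both genotypes and 4 in the OL interaction, and put *Grin2b* in WT_OL at 0.082. Quantile normalization called 1 member in KO_OL, libraries of the compared groups alone 4 there and 0 for OL with both genotypes, and CPM floored at 1 called 0 for the latter. The cause of these moves was not tested. Shares of all genes called under these settings, or without single libraries, are not given here. The counts are therefore not read as a result about the members.

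Same-numbered replicates of different groups correlated at -0.67 to 0.62 after removal of group means. Differently numbered replicates were not set beside them, so this does not settle whether the numbers pair the mice. With the replicate block 1 member was called in WT_RL (*Grin2d*) and 0 for OL with both genotypes, and no other count changed.

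Without single libraries the count of called members ran from 0 to 1 in WT_OL, 0 to 3 in KO_OL, 0 to 2 in WT_RL, 0 to 4 in KO_RL, 0 to 2 for WT_RL against WT_OL, 0 to 4 for KO_OL against WT_OL, 0 to 3 for OL and 3 to 4 for RL with both genotypes, and 0 to 1 in the OL interaction. *Grin2b* in WT_OL ran from -0.74 to 0.13. The differences recomputed were a chosen set of those printed. Counted as pairs of a difference and a setting other than a left-out library, 291 kept direction and side of the threshold, 15 newly passed it, 22 no longer did and 2 reversed.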

Other observations

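Summed levels of the marker lists ranged over the 18 libraries as follows. Glutamatergic neurons had 2299 to 3411 CPM, CA1 pyramidal neurons 542 to 823, GABAergic interneurons 769 to 1053 and cerebellar granule neurons 12.9 to 79.3. Thalamic and habenular neurons had 96.0 to 237 CPM, with the highest sum in WT_RL replicate 3. Astrocytes had 2592 to 3895 CPM, oligodendrocytes 4675 to 10407, microglia 253 to 352 and endothelial cells 154 to 230. Markers of the choroid plexus, which is not hippocampal tissue, ran from 41.6 CPM in WT_RL replicate 1 to 8370 CPM in WT_RL replicate 3, a spread within a single group.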
